A study of Mus musculus with 14 samples.

Results

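Imprinted genes lying outside the Peg10 and Sgce cluster were followed in the bladder urothelium, the epithelium that lines the bladder, of mouse embryos at embryonic day 15.5. The genes were taken by symbol from a list of 41, of which 34 stood in the table of 20308 genes and 29 passed the filter on low counts. By the parental allele they are known to be expressed from, 16 of the 41 are maternally expressed (12 in the table, 10 tested) and 24 are paternally expressed (21 in the table, 18 tested). Gnas, whose transcripts differ in the allele they use, is the remaining 1. Polyadenylated RNA of 14 libraries was sequenced. The Dnmt1cKO group (n = 5) carried 1 Shhcre allele and 2 floxed alleles of Dnmt1, the maintenance DNA methyltransferase. The control group (n = 2) carried 1 Shhcre allele and 1 floxed Dnmt1 allele beside a normal one, and the Cre-negative group (n = 7) consisted of littermates without Cre. All were of the mixed C57BL/6; 129S4 background. Cre was driven from the Shh locus, so deletion is limited to cells that have expressed Shh. Each library was 1 lysate of tissue pooled from several embryos, separated from the stroma with trypsin.

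Genomic imprinting leaves a gene active on the chromosome from 1 parent and silent on the other. The mark that tells the parental copies apart is DNA methylation laid down in the egg or the sperm at imprinting control regions, and it must be copied at every cell division, which is the work of Dnmt1 together with Uhrf1. Many imprinted genes act in embryonic growth, and paternally expressed members often promote growth while maternally expressed ones often restrain it. The counts in these libraries are summed over both alleles of a gene, so they show how much RNA a gene gave and not which parental copy gave it.

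Dnmt1 had 9.99, 26.7, 123, 31.2 and 49.1 CPM (counts per 1000000 of the TMM-scaled library) in Dnmt1cKO libraries 1 to 5, against 97.4 and 106 CPM in the controls and 41.3 to 192 CPM (median 138) in the Cre-negative libraries. Its log2 fold change from Cre-negative was -1.31 ± 0.51 (SE), with an adjusted p of 0.249 by edgeR's quasi-likelihood test. The library labelled Dnmt1cKO 3, the highest of its group, and Dnmt1cKO 5 lay inside the Cre-negative range. Without Dnmt1cKO 3, a setting chosen for these genes after seeing the data, Dnmt1 had -1.998 (adjusted p = 0.0531). Of the 29 imprinted genes tested against Cre-negative, leaving it out moved 6 by over 1.5-fold, which were Zrsr1 (0.80 in place of 1.86), Igf2 (-0.75 in place of 0.17), Peg12 (0.15 in place of 1.05), Zdbf2 (2.69 in place of 3.48), Tssc4 (-3.03 in place of -2.27) and Grb10 (-1.28 in place of -0.61). It turned the sign of 4, Igf2, Mkrn3, Ndn and Cdkn1c, and ended the call of Cd81. Against control it moved 7 by as much, the same ones and Mest, which stood at -0.53 in place of 0.06, and it changed no call. Library totals ran from 2520509 to 13131921 counts. All 16 urothelial markers were detected in each group, with a summed level of 5623 to 16575 CPM in Dnmt1cKO, 7991 to 13464 CPM in control and 11897 to 20614 CPM in Cre-negative libraries. The libraries also held RNA of 18 stroma and smooth muscle markers, with a summed level of 260 to 11808 CPM in Dnmt1cKO (median 2644), 3372 and 12654 CPM in control, and 184 to 3207 CPM in Cre-negative libraries (median 609). Of these 18, Thy1 was at 0 in the Cre-negative libraries and none was at 0 throughout either other group. Between Dnmt1cKO and Cre-negative libraries, 2 of the 17 stroma markers tested were called higher, with a median log2 fold change of 2.13. No marker of another list was called, and the medians were 2.40 for 5 neural, 5.03 for 2 immune, 1.76 for 4 erythroid, 1.24 for 5 endothelial, 0.39 for 4 mesothelial and -0.50 for 16 urothelial markers. Summed neural markers were at 15.7 to 458 CPM in Dnmt1cKO, 59.5 and 195 CPM in control and 7.85 to 74.2 CPM in Cre-negative libraries. Immune markers were at 0 to 79.6 CPM in Dnmt1cKO, 5.39 and 16.8 CPM in control and 0 to 3.18 CPM in Cre-negative libraries. Erythroid markers were at 162 to 1621 CPM in Dnmt1cKO, 420.3 and 1152 CPM in control and 63.7 to 365 CPM in Cre-negative libraries. Endothelial markers were at 0 to 91.9 CPM in Dnmt1cKO, 15.2 and 46.9 CPM in control and 0.271 to 16.9 CPM in Cre-negative libraries. The T cell marker Cd3e was at 0 in all 14 libraries. The part of these other cell types in the results was not tested. The mean log2(CPM + 1) of the 18 stroma and smooth muscle markers is called the stroma mean below. It was 2.25, 4.31, 6.54, 6.58 and 4.45 in Dnmt1cKO libraries 1 to 5, against 5.20 and 6.84 in the controls and 2.16 to 4.81 in the Cre-negative libraries. Exact two-sided permutation tests of the stroma mean gave p = 0.105 between Dnmt1cKO and Cre-negative libraries (0.157 adjusted over the 3 comparisons), 0.333 between Dnmt1cKO and control libraries (0.333 adjusted) and 0.0278 between control and Cre-negative libraries (0.0833 adjusted). With 36 possible splits, 0.0278 is the smallest p this test can give, and both controls lay above every Cre-negative library. With the stroma mean as a covariate in edgeR's quasi-likelihood test, Dnmt1 had a log2 fold change of -2.36 ± 0.55 from Cre-negative (adjusted p = 0.041). In bulk RNA, fewer cells of a type and less RNA per cell cannot be told apart.

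In Cre-negative urothelium, Cdkn1c, which encodes the cyclin-dependent kinase inhibitor p57, had the highest level per length among the 34 genes, at 141 ± 49.5 CPM per kb of exon (SD, n = 7). Gnas, which encodes the stimulatory G protein alpha subunit, came next at 90.3 ± 12.0 CPM per kb. A step below stood Grb10 at 35.9 ± 16.3, Igf2 at 30.8 ± 19.95, Cd81 at 25.2 ± 9.41, Slc38a4 at 22.9 ± 11.3, Peg3 at 22.8 ± 8.37, Copg2 at 21.4 ± 6.58 and Igf2r at 20.6 ± 10.6 CPM per kb, and the difference between any neighbours in that order was smaller than their spread. Mest stood 15th at 6.86 ± 3.75 CPM per kb and Dlk1 23rd at 1.69 ± 2.15 CPM per kb. The length was that of the merged exons of all annotated transcripts, 2039 bases for Cdkn1c and 11186 bases for Gnas. The order depends on that choice. Before division by length, Gnas had 1010 ± 135 CPM and Cdkn1c 288 ± 101 CPM in Cre-negative libraries. In Dnmt1cKO urothelium Cdkn1c was again first per length, at 146 ± 101 CPM per kb, followed by Cd81 at 74.0 ± 32.9, Gnas at 60.8 ± 10.99, Mest at 57.6 ± 63.6 and Peg3 at 52.7 ± 12.1 CPM per kb (n = 5).

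Dnmt1cKO urothelium was first set against that of littermates lacking Cre. Peg3 and Mest, both paternally expressed, and Cd81, listed as maternally expressed, were higher in Dnmt1cKO urothelium, and none of the imprinted genes was called lower. These 3 are 10.3% of the 29 tested, where 1.1% of all 13011 genes tested were called in either direction, 0.915% as higher and 0.184% as lower (edgeR's quasi-likelihood test, adjusted p under 0.05 over all genes). At an unadjusted p under 0.05 there were 8 higher and 4 lower, beside 6.66% of all genes as higher and 7.03% as lower. The median log2 fold change of the tested imprinted genes was 0.09, beside -0.04 for all genes, and 17 of 29 (58.6%) had a positive value, beside 47.9% of all genes. Of the 18 paternally expressed genes tested, 2 were called higher (11.1%), 14 had a positive log2 fold change and the median was 1.02. Of the 10 maternally expressed genes tested, Cd81 alone was called, 3 had a positive log2 fold change and the median was -0.57. Against control, 9 of the 18 paternally and 2 of the 10 maternally expressed genes had a positive value, with medians of -0.07 and -0.43, and in control against Cre-negative urothelium 13 of the 18 and 4 of the 10 did, with medians of 0.31 and -0.10. These counts cover tested genes, some of which passed the filter through 1 group, and are given as a description. In simulated counts the edgeR test recovered decreases less often than increases of the same size. Those changes were set only in genes above a fixed mean level. Zim1, Ascl2 and Magel2 were below it, so recovery at such low levels was not measured.

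**Figure D1:**
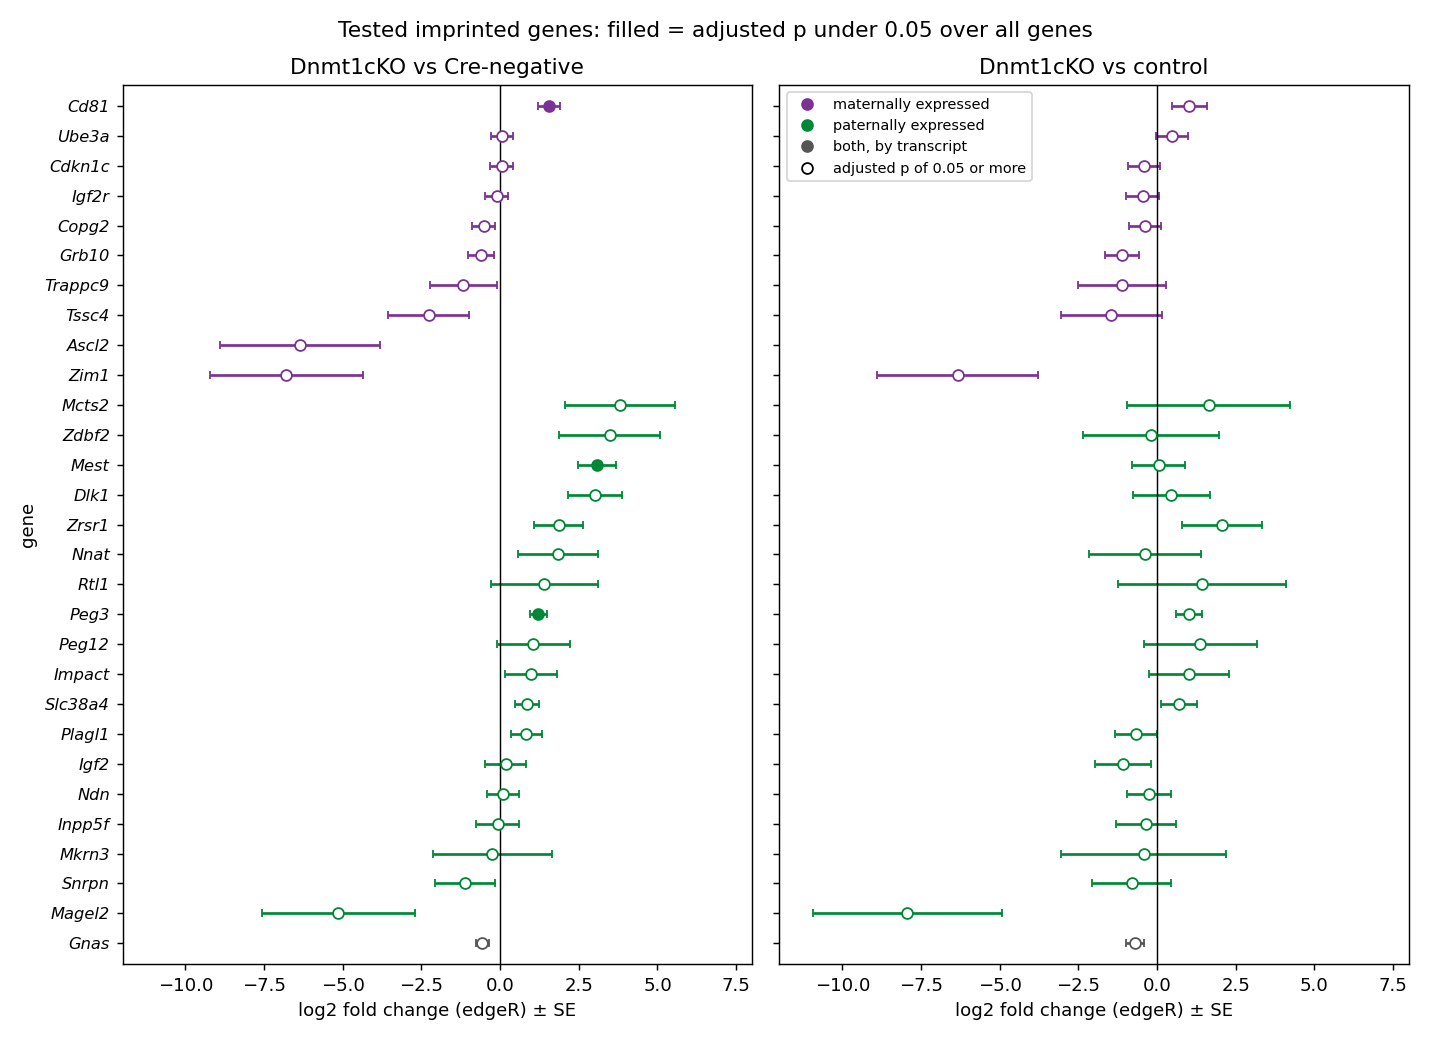
Log2 fold change with its standard error for the tested imprinted genes in Dnmt1cKO against Cre-negative (left panel) and Dnmt1cKO against control urothelium (right panel), with maternally expressed genes at the top, paternally expressed genes in the middle and Gnas at the bottom. Filled points have an adjusted p under 0.05, which holds for Cd81, Mest and Peg3 on the left and for no gene on the right. Ascl2 has no point on the right because both groups were at 0.

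Among the paternally expressed genes, Peg3, which encodes a zinc finger protein of the Peg3 domain on chromosome 7, separated the groups completely. It had 660, 960, 521, 654 and 714 CPM in Dnmt1cKO libraries 1 to 5, against 365 and 323 CPM in the controls and 142 to 413 CPM (median 335) in the Cre-negative libraries. Each of the 5 Dnmt1cKO libraries was above the other 9. Means were 702 ± 161 CPM in Dnmt1cKO, 344 ± 29.6 CPM in control and 304 ± 111 CPM in Cre-negative libraries (SD). The log2 fold change against Cre-negative was 1.21 ± 0.27 (adjusted p = 0.0211), and against control it was 1.03 ± 0.41 (unadjusted p = 0.0195, adjusted p = 0.553). Peg3 was the 1 tested imprinted gene with Dnmt1cKO libraries entirely above the Cre-negative ones (0.861% of all genes), and 0 lay entirely below (0.999% of all genes). The call was lost without Cre-negative 1 (1.15, adjusted p = 0.0529), with the stroma mean as a covariate (1.139 ± 0.29, adjusted p = 0.0741) and when the 3 shallowest libraries were left out (1.19, adjusted p = 0.0987), and it held without Dnmt1cKO 3 (1.32, adjusted p = 0.0158). Peg3 spans chr7:6703892-6730431 on the minus strand of GRCm38, the mm10 build. The promoter window of RefSeq on GRCm38.p6, from 250 bases before to 50 bases after the start site at chr7:6730370-6730669 on the minus strand, is shown because Peg3 was called. Its CpG sites, where mammalian DNA is methylated, are in capitals; methylation was not measured in these libraries.

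Peg3 promoter: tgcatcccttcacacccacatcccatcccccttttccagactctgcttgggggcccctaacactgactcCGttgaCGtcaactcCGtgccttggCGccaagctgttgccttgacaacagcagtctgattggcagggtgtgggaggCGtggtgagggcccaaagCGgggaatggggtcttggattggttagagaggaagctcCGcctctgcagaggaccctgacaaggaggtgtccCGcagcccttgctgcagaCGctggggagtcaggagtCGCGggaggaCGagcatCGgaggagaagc

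This window holds 13 CpG sites, beside a median of 7 in the 32851 promoter windows of the table and of 16 in the 45 windows of the 30 imprinted genes that have one. It overlaps the window of Usp29, a ubiquitin peptidase gene read in the opposite direction from chr7:6730333-6730632, which holds 17 CpG sites. Usp29 had 0 counts in the 5 Dnmt1cKO libraries, 15 counts in the controls, all in control 1, and 1 count in the Cre-negative libraries, and it did not pass the filter. Zim1, a maternally expressed zinc finger gene next to Peg3 at chr7:6671269-6696450, is known in mouse as the reciprocally imprinted neighbour. It had 0, 0.104, 0, 0 and 0 CPM in Dnmt1cKO libraries 1 to 5, against 7.32 and 0 CPM in the controls and 0 to 18.0 CPM (median 3.43) in the Cre-negative libraries. The Dnmt1cKO libraries together held a single count, against 106 in control 1 and 334 over 6 of the 7 Cre-negative libraries, where Cre-negative 3 had 0. That count puts Zim1 in Dnmt1cKO at a level 126-fold below Cre-negative, with a 95% counting interval of 22.5 to 5010 that covers counting error only. Zim1 did not pass the threshold in edgeR (adjusted p = 0.193) and passed it in DESeq2 (adjusted p = 0.0275), and its adjusted p ran as high as 0.746 among the alternatives. Within libraries, the log2 ratio of Zim1 to Peg3, each with 1 CPM added, was -9.76 to -9.03 in Dnmt1cKO, -5.46 and -8.34 in control and -7.40 to -4.44 in Cre-negative urothelium. The Dnmt1cKO ratios lay below the other 9. In the libraries with no Zim1 count, which are 4 of Dnmt1cKO, control 2 and Cre-negative 3, the level of Peg3 alone sets this ratio.

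Mest, which encodes an alpha/beta hydrolase-fold protein and is paternally expressed in mesodermal tissue of the embryo, had 43.7, 58.4, 539, 462 and 33.9 CPM in Dnmt1cKO libraries 1 to 5. The controls had 83.2 and 354 CPM, and the Cre-negative libraries 14.5 to 46.5 CPM (median 16.1). Dnmt1cKO 3 and 4 stood far above the rest of their group, and Dnmt1cKO 1 and 5 lay inside the Cre-negative range. For Mest the log2 fold change against Cre-negative was 3.07 ± 0.61 (adjusted p = 0.00712), and against control it was 0.06 ± 0.84. Both controls were also above the 7 Cre-negative libraries, as in 6.04% of all genes tested, with a log2 fold change of 3.01 ± 0.72 (adjusted p = 0.226). Dnmt1cKO 3, Dnmt1cKO 4 and control 2 were the libraries with the highest stroma means, and without these 3 the log2 fold change of Mest was 0.78 (adjusted p = 0.644). Fitted with the stroma mean beside the groups, Mest had 1.16 ± 0.47 (adjusted p = 0.362). The call was also lost in limma-voom (2.31, adjusted p = 0.125) and with control and Cre-negative libraries together as the comparison group (1.70, adjusted p = 0.391), and it held without Dnmt1cKO 3 (2.49, adjusted p = 0.0404). Mest spans chr6:30723547-30748465 on the plus strand of GRCm38. The RefSeq window at chr6:30737800-30738099 is the richer in CpG, in capitals, of 2 separate start regions of the gene.

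Mest promoter: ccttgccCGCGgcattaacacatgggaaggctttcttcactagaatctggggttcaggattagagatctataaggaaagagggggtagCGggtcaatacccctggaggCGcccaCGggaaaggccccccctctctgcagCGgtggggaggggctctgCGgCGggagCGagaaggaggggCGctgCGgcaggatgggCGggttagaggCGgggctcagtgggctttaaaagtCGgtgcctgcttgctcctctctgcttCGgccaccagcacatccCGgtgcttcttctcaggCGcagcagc

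It holds 17 CpG sites, against 8 in the upstream window at chr6:30733256-30733555. The hexamer TGCCGC, known in mouse as the motif of the imprint-keeping zinc finger protein Zfp57 when its CpG is methylated, occurs in the lower window at 2 places, both on the minus strand, and at 0 places on either strand of the Peg3 window above and the Cd81 window below. On either strand it is present in 11 of the 45 windows of imprinted genes (24.4%) and in 11.6% of all windows. Copg2, a coatomer subunit gene that overlaps the 3′ end of Mest on the opposite strand and is maternally expressed, had 61.9, 127, 54.6, 86.3 and 50.9 CPM in Dnmt1cKO, against 98.2 and 101 CPM in control and 54.9 to 154 CPM (median 120) in Cre-negative libraries. Its groups overlapped, and the log2 fold change was -0.53 ± 0.36 (adjusted p = 0.603). The use of strand in counting was not given in the sources used here, so reads of the overlap cannot be assigned to either gene. The log2 ratio of Mest to Copg2 was -0.49, -1.10, 3.28, 2.41 and -0.57 in Dnmt1cKO libraries 1 to 5, against -0.24 and 1.80 in control and -2.83 to -1.47 in Cre-negative libraries. All 5 Dnmt1cKO ratios and both control ratios were above the 7 Cre-negative ones, and the ranges of Dnmt1cKO and control overlapped.

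Dlk1, a transmembrane relative of the Notch ligands and marker of precursor cells, is paternally expressed from a cluster on chromosome 12. It had 88.8, 24.9, 140, 55.8 and 80.9 CPM in Dnmt1cKO libraries 1 to 5, against 22.7 and 91.1 CPM in control and 0.510 to 31.7 CPM (median 2.67) in Cre-negative libraries. Dnmt1cKO 2 alone fell inside the Cre-negative range. Dnmt1cKO 3, with a stroma mean of 6.54, was the highest of its group, and Dnmt1cKO 1, with a stroma mean of 2.25, the second highest. Control 2, with a stroma mean of 6.84, was the higher control. The log2 fold change against Cre-negative was 3.03 ± 0.86 and missed the threshold (adjusted p = 0.0942), which it passed in DESeq2 (3.10, adjusted p = 0.00981), in limma-voom (3.72, adjusted p = 0.0463), with no filter on low counts (3.03, adjusted p = 0.0242) and without Cre-negative 5 (3.73, adjusted p = 0.0436). Over the alternatives the adjusted p ran from 0.00981 to 0.414. Against control the log2 fold change was 0.46 ± 1.22. Rtl1, a retrotransposon-derived gene of the same cluster that acts in the placental vessels of mice, had 0 to 21.7 CPM in Dnmt1cKO, 0.486 and 5.60 CPM in control and 0 to 7.005 CPM in Cre-negative libraries. Dio3, a thyroid hormone-inactivating deiodinase gene of that cluster, had 17 counts in Dnmt1cKO 2 and 0 in the other 13 libraries.

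Igf2, the fetal growth factor, is paternally expressed and did not separate the groups. It had 3.996, 84.3, 581, 289 and 36.1 CPM in Dnmt1cKO libraries 1 to 5, against 321 and 523 CPM in control and 37.8 to 365 CPM (median 146) in Cre-negative libraries. Dnmt1cKO 1 and 5 lay below the lowest Cre-negative library and Dnmt1cKO 3 above the highest. For Igf2 the log2 fold change against Cre-negative was 0.17 ± 0.65 (adjusted p = 0.964), and it turned to -0.75 without Dnmt1cKO 3 and to -2.53 ± 0.62 with the stroma mean as a covariate (adjusted p = 0.0667).

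**Figure D2:**
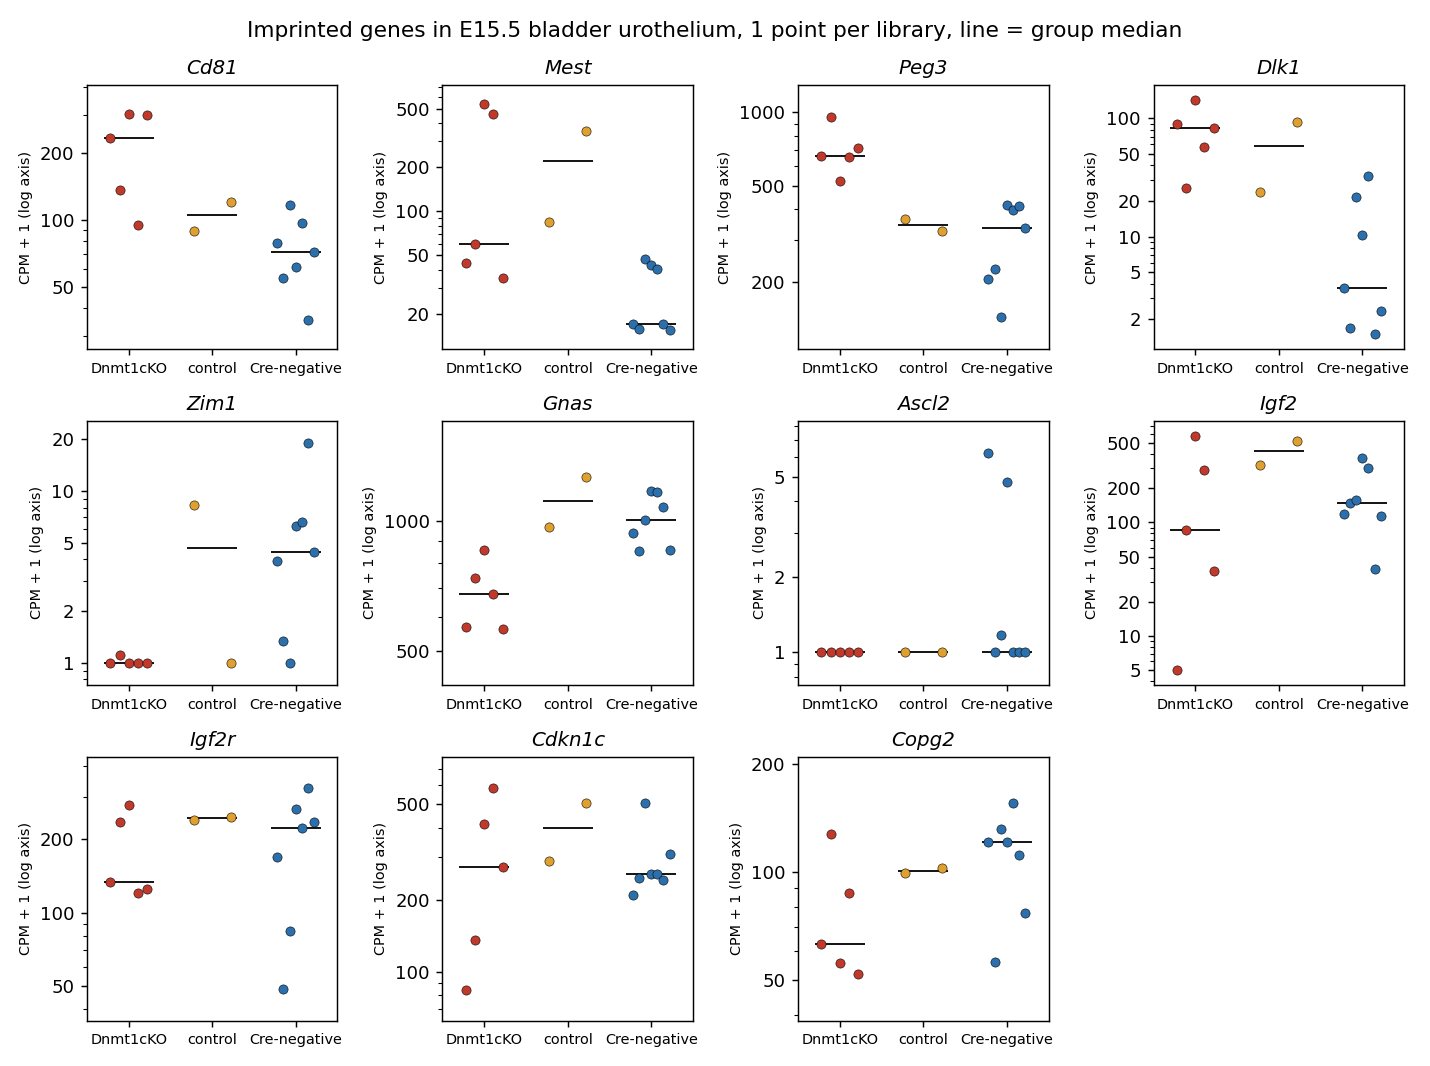
Level of 11 imprinted genes in each library, as CPM + 1 on a log axis, for Dnmt1cKO, control and Cre-negative urothelium, with a line at the group median. Peg3 in the 5 Dnmt1cKO libraries lies above the other 9, Mest and Igf2 spread widely within Dnmt1cKO, and Zim1 is at or near 0 in Dnmt1cKO.

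Other paternally expressed genes are given by their means. Slc38a4, an amino acid transporter gene, averaged 177 ± 52.6 CPM in Dnmt1cKO, 109 ± 0.768 CPM in control and 97.7 ± 48.1 CPM in Cre-negative libraries, with 4 of 5 Dnmt1cKO libraries above the highest Cre-negative one (log2 fold change 0.86 ± 0.38, adjusted p = 0.303). Plagl1, a zinc finger transcription factor gene, averaged 152 ± 107 CPM in Dnmt1cKO, 244 ± 132 CPM in control and 85.2 ± 50.9 CPM in Cre-negative libraries (0.84 ± 0.48, adjusted p = 0.48). Impact, whose product restrains the translational stress kinase Gcn2, averaged 32.0 ± 17.2 CPM in Dnmt1cKO, 15.7 ± 2.94 CPM in control and 16.2 ± 7.84 CPM in Cre-negative libraries (0.98 ± 0.83, adjusted p = 0.702). None of these passed the threshold.

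Zrsr1, a splicing factor retrogene inside an intron of Commd1, averaged 58.5 ± 69.5 CPM in Dnmt1cKO, 14.1 ± 2.28 CPM in control and 16.1 ± 9.76 CPM in Cre-negative libraries (1.86 ± 0.79, adjusted p = 0.279). Its deposited values were not whole numbers in any of the 14 libraries. Mcts2, a retrogene of a translation factor, averaged 17.8 ± 26.4 CPM in Dnmt1cKO, 5.69 ± 0.947 CPM in control and 1.23 ± 1.46 CPM in Cre-negative libraries (3.82 ± 1.75, adjusted p = 0.327). Zdbf2, a zinc finger gene that in mouse acts on feeding and growth, averaged 15.97 ± 18.1 CPM in Dnmt1cKO, 18.3 ± 9.11 CPM in control and 1.40 ± 2.20 CPM in Cre-negative libraries (3.48 ± 1.59, adjusted p = 0.325). Nnat, neuronatin, averaged 17.1 ± 18.7 CPM in Dnmt1cKO, 22.3 ± 3.41 CPM in control and 4.78 ± 5.47 CPM in Cre-negative libraries (1.84 ± 1.27, adjusted p = 0.603). In Zdbf2, Mcts2 and Nnat both controls lay above the 7 Cre-negative libraries, as in 6.04% of all genes tested, and 2 or 3 of the 5 Dnmt1cKO libraries did.

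The paternally expressed genes of the Snrpn to Peg12 region of chromosome 7 had log2 fold changes of both signs. Snrpn, a spliceosomal protein gene, averaged 12.5 ± 12.9 CPM in Dnmt1cKO, 21.9 ± 5.05 CPM in control and 27.1 ± 4.27 CPM in Cre-negative libraries, with 4 of 5 Dnmt1cKO libraries below the lowest Cre-negative one (log2 fold change -1.11 ± 0.94, adjusted p = 0.702). Ndn, the growth suppressor necdin, averaged 53.2 ± 25.7 CPM in Dnmt1cKO, 63.8 ± 23.6 CPM in control and 49.9 ± 17.7 CPM in Cre-negative libraries (0.09 ± 0.50, adjusted p = 0.98). Magel2, a relative of necdin, had 0 counts in Dnmt1cKO, 67 counts over both controls and 48 counts in the Cre-negative group, all of them in Cre-negative 4. Against a floor of 3 counts over the summed Dnmt1cKO libraries, the summed level of Magel2 was at least 6.06-fold lower than in Cre-negative and at least 25.6-fold lower than in control urothelium, with adjusted p of 0.356 and 0.514. The bound against Cre-negative rests on Cre-negative 4 alone, as the other 6 libraries of that group were at 0 too. Peg12, a relative of the Wnt pathway gene Frat1, had a log2 fold change of 1.05 ± 1.15, and Mkrn3, a ubiquitin ligase gene, of -0.24 ± 1.89. Outside the region, Inpp5f, a phosphoinositide phosphatase gene of which a short transcript is imprinted in mouse brain, stood at -0.08 ± 0.67. Rasgrf1, a guanine nucleotide exchange factor gene, had 62 counts in Cre-negative 7 and 0 in the other 13 libraries, and did not pass the filter.

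Among the maternally expressed genes, Cd81, a tetraspanin of the cell surface whose imprinting in mouse is known from the placenta, was higher in Dnmt1cKO urothelium. It had 235, 136, 302, 94.2 and 299 CPM in Dnmt1cKO libraries 1 to 5, against 88.7 and 120 CPM in control and 34.1 to 115 CPM (median 70.3) in Cre-negative libraries. Dnmt1cKO 4 alone lay inside the Cre-negative range. Cd81 had a log2 fold change of 1.55 ± 0.36 against Cre-negative (adjusted p = 0.026) and 1.03 ± 0.54 against control (adjusted p = 0.802). Fitted with the stroma mean beside the groups, Cd81 had 1.54 ± 0.39 and an adjusted p of 0.0814. The call was lost without any 1 of Dnmt1cKO 3 (1.42, adjusted p = 0.0614), Dnmt1cKO 5 (1.40, 0.0744), Cre-negative 4 (1.51, 0.0625), Cre-negative 6 (1.43, 0.0571) and Cre-negative 7 (1.55, 0.0647), and without the 3 shallowest libraries (1.25, 0.175). Cd81 spans chr7:143052739-143067934 on the plus strand of GRCm38, within the Kcnq1 imprinted domain. Its RefSeq window at chr7:143052500-143052799 on the plus strand is shown with CpG sites in capitals, for comparison with those of Peg3 and Mest.

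Cd81 promoter: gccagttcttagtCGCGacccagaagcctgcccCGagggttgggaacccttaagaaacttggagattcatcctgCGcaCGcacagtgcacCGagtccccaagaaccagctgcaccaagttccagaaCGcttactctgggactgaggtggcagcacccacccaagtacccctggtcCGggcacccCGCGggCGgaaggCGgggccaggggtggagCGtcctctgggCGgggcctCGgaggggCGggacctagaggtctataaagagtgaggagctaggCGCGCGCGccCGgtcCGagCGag

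With 23 CpG sites it is the densest of the 3 printed windows. Other genes of the Kcnq1 domain gave no call. Cdkn1c had 83.1, 134, 415, 586 and 272 CPM in Dnmt1cKO libraries 1 to 5, against 290 and 505 CPM in control and 208 to 507 CPM (median 254) in Cre-negative libraries. Dnmt1cKO 1 and 2 were below that range and Dnmt1cKO 4 above it. For Cdkn1c the log2 fold change was 0.05 ± 0.37 (adjusted p = 0.988), and its sign turned with the stroma mean as covariate (-0.90), without the 3 libraries of highest stroma mean (-0.80), without Dnmt1cKO 4 (-0.35), without Dnmt1cKO 3 (-0.074) and under upper-quartile scaling (-0.024), among other settings. Tssc4, known in human cells as an assembly factor of the splicing machinery, averaged 4.86 ± 6.55 CPM in Dnmt1cKO, 13.5 ± 2.93 CPM in control and 23.7 ± 10.6 CPM in Cre-negative libraries, with 4 of 5 Dnmt1cKO libraries below the lowest Cre-negative one (-2.27 ± 1.29, adjusted p = 0.473). Limma-voom did call Tssc4 lower, but it called 3.49% of all genes in either direction, beside 1.1% in edgeR. Of 13011 genes it called 292 lower, beside 24 in edgeR. Ascl2, a transcription factor gene of the trophoblast, had 0 counts in all 5 Dnmt1cKO and both control libraries and 120 counts in the Cre-negative group. These came to 5.20 CPM in Cre-negative 1, 3.79 CPM in Cre-negative 4, 0.173 CPM in Cre-negative 3 and 0 in the other 4. The summed level of Ascl2 was at least 15.1-fold lower in Dnmt1cKO than in Cre-negative urothelium against a floor of 3 counts over the group (adjusted p = 0.264). This bound rests almost wholly on Cre-negative 1 and 4. Phlda2, a placental growth restrainer, had 72 counts in Dnmt1cKO (71 of them in Dnmt1cKO 1), 0 in control and 9 in Cre-negative libraries.

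Grb10, an adaptor that dampens insulin and IGF receptor signalling, had 72.2, 125, 540, 165 and 164 CPM in Dnmt1cKO, against 368 and 556 CPM in control and 149 to 516 CPM (median 331) in Cre-negative libraries. Dnmt1cKO 1 and 2 lay below the Cre-negative range and Dnmt1cKO 3 above it. Grb10 had a log2 fold change of -0.61 ± 0.40 against Cre-negative (adjusted p = 0.575) and -1.11 ± 0.54 against control (adjusted p = 0.725). Igf2r, the receptor that clears IGF2 for lysosomal breakdown, had 133, 234, 277, 120 and 124 CPM in Dnmt1cKO, against 240 and 247 CPM in control and 47.4 to 324 CPM (median 221) in Cre-negative libraries. All 5 Dnmt1cKO values of Igf2r were inside the Cre-negative range (-0.11 ± 0.38, adjusted p = 0.957). Its neighbour Slc22a3, an organic cation transporter gene, had 6 counts in the Dnmt1cKO, 4 in the control and 18 in the Cre-negative group and did not pass the filter. Ube3a, the ubiquitin ligase whose imprinting is known from neurons, had a log2 fold change of 0.07 ± 0.35, and Trappc9, a vesicle trafficking gene imprinted in mouse brain, of -1.17 ± 1.06.

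Gnas had 567.96, 738, 855, 679 and 562 CPM in Dnmt1cKO libraries 1 to 5, against 966 and 1264 CPM in control and 852 to 1171 CPM (median 1004) in Cre-negative libraries. Dnmt1cKO 3, at 855 CPM, was just above the lowest Cre-negative library, and the other 4 were below all 9 remaining libraries. Its log2 fold change stood at -0.57 ± 0.21 against Cre-negative (adjusted p = 0.213) and -0.71 ± 0.29 against control (adjusted p = 0.553), so the difference did not pass the threshold. Counts are per gene and do not separate the biallelic transcript from the imprinted ones, and annotated exons of Nespas lie on the opposite strand.

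The stroma mean varied from library to library within each group, and its relation to the imprinted genes was fitted beside the group terms. Of the 29 tested, 3 rose with the stroma mean, which is 1 maternally and 2 paternally expressed, where 0.208% of all genes had a slope past the threshold in either direction and 0.192% a rising one. The slope, in log2 units of expression per unit of stroma mean, was 1.08 ± 0.18 for Igf2 (adjusted p = 0.00499), 0.82 ± 0.15 for Mest (adjusted p = 0.0156) and 0.53 ± 0.11 for Grb10 (adjusted p = 0.0394). A positive slope was found in 24 of the 29, beside 52.1% of all genes, and the median slope was 0.20, beside 0.02 for all genes. The slopes of Peg3 and Cd81 were 0.06 ± 0.10 and 0.01 ± 0.14, with adjusted p of 0.923 and 0.995. Dnmt1cKO 1, whose stroma mean of 2.25 was among the lowest, had 660 CPM of Peg3, 235 CPM of Cd81 and 88.8 CPM of Dlk1, each above the highest Cre-negative library, and 3.996 CPM of Igf2 and 72.2 CPM of Grb10, each below the lowest. None of the 3 slopes passed the threshold without Dnmt1cKO 1, and without control 2 or without Dnmt1cKO 3 the one of Igf2 alone did.

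**Figure D3:**
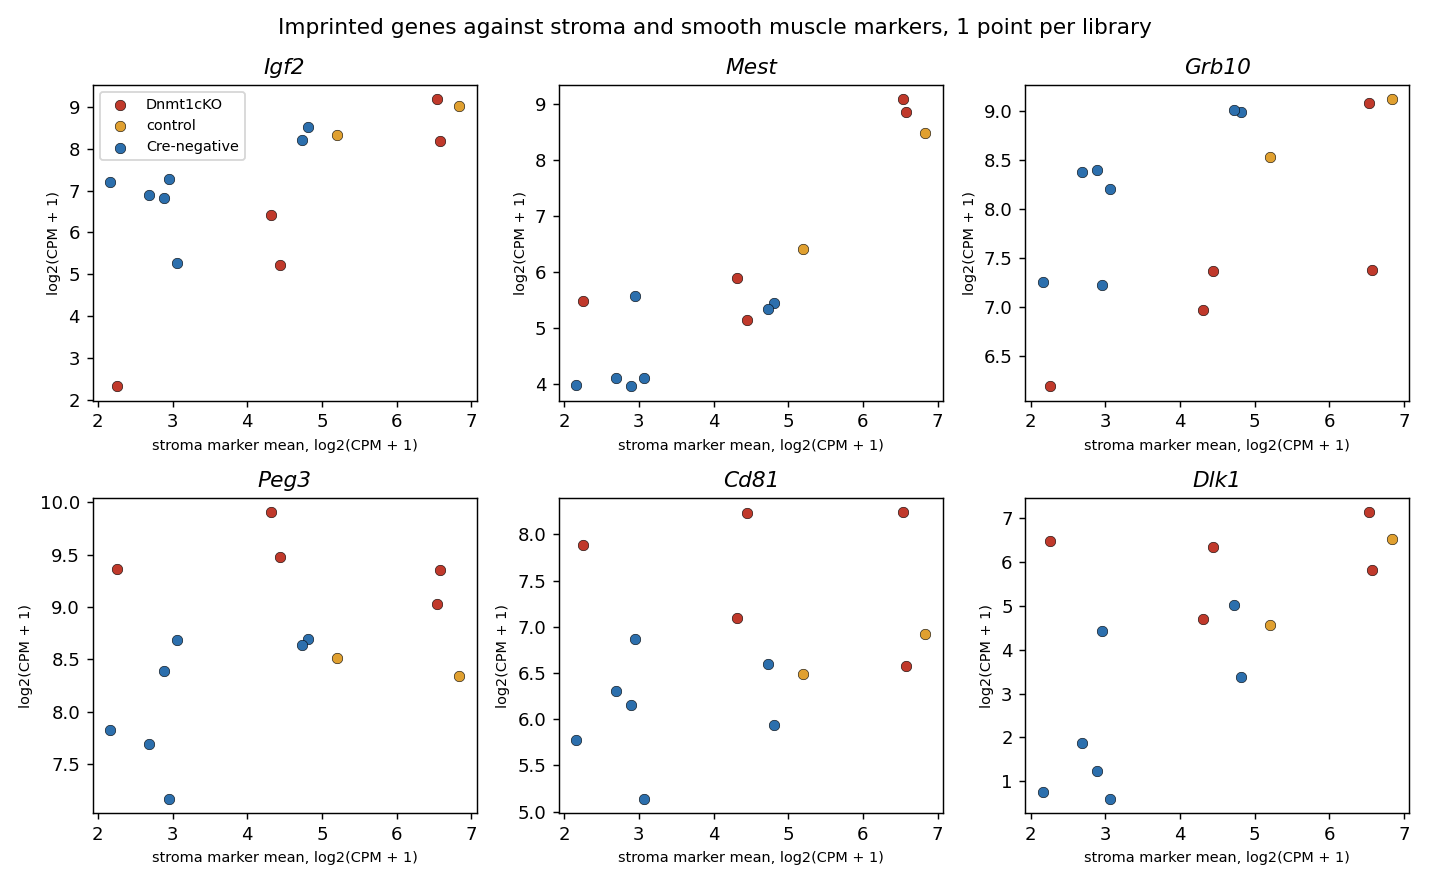
Level of 6 imprinted genes against the stroma mean, both as log2(CPM + 1), with 1 point for each library of the Dnmt1cKO, control and Cre-negative groups. Igf2, Mest and Grb10 climb with the stroma mean, while Peg3 in Dnmt1cKO libraries stays above the other groups along the whole axis.

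With the stroma mean as a covariate, 1 of the 29 passed the threshold between Dnmt1cKO and Cre-negative urothelium, beside 0.692% of all genes in either direction and 0.0692% as lower. This was Grb10, lower in Dnmt1cKO with a log2 fold change of -1.56 ± 0.35 (adjusted p = 0.0289). Peg3 and Cd81 kept their size and missed the threshold, as given above, and Dlk1 had 2.76 ± 0.83 (adjusted p = 0.188). The slope of Dlk1 on the stroma mean was 0.42 ± 0.29 (adjusted p = 0.702 by edgeR's quasi-likelihood test). At an unadjusted p under 0.05 in this fit, 5 of the 29 were higher and 7 lower, beside 9.88% of all genes in either direction. The covariate is computed from the same libraries. The part of stromal cells in the values of Mest, Igf2 and Grb10 was not tested beyond these fits.

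Set against the controls, which share the Shhcre allele, 0 of 29 imprinted genes passed the threshold, beside 0.177% of all genes (edgeR's quasi-likelihood test). DESeq2 and limma-voom also called 0, beside 1.18% and 1.78% of all genes. At an unadjusted p under 0.05 there was 1 higher, Peg3, and 3 lower, Magel2, Zim1 and Gnas, beside 1.71% of all genes as higher and 5.23% as lower. Without overlap between the groups, Peg3 and Zrsr1 were higher in Dnmt1cKO (2.6% of all genes), and Magel2 and Gnas were lower (9.74% of all genes). The log2 fold change was positive in 11 of 29, beside 49.4% of all genes. The comparison rests on 2 control libraries. It shares the Dnmt1cKO libraries with the one against Cre-negative, so the values of the genes in both are not independent.

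In control against Cre-negative urothelium, which differ in the Shhcre allele and 1 floxed Dnmt1 allele, 0 of 29 passed the threshold, beside 0.0538% of all genes (edgeR's quasi-likelihood test). DESeq2 and limma-voom also called 0, beside 0.188% and 0.307% of all genes. At an unadjusted p under 0.05 there were 3 higher, all paternally expressed: Mest (3.01 ± 0.72), Dlk1 (2.57 ± 1.02) and Plagl1 (1.51 ± 0.61), with adjusted p of 0.226, 0.8 and 0.848. Of all genes, 3.49% were higher and 0.177% lower at that p. Both controls were above the 7 Cre-negative libraries for Mest, Plagl1, Nnat, Zdbf2 and Mcts2 (6.04% of all genes), and below them for 0 (1.9% of all genes). In 18 of 29 the log2 fold change was positive, beside 46.4% of all genes. The controls had stroma means of 5.20 and 6.84, above the highest Cre-negative value of 4.81. With the stroma mean as a covariate 0 of the 29 had an unadjusted p under 0.05 in this comparison, beside 1.68% of all genes in either direction. As these 2 groups do not overlap in the stroma mean, that fit cannot tell group and stroma mean apart, and nothing is concluded from the count.

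**Figure D4:**
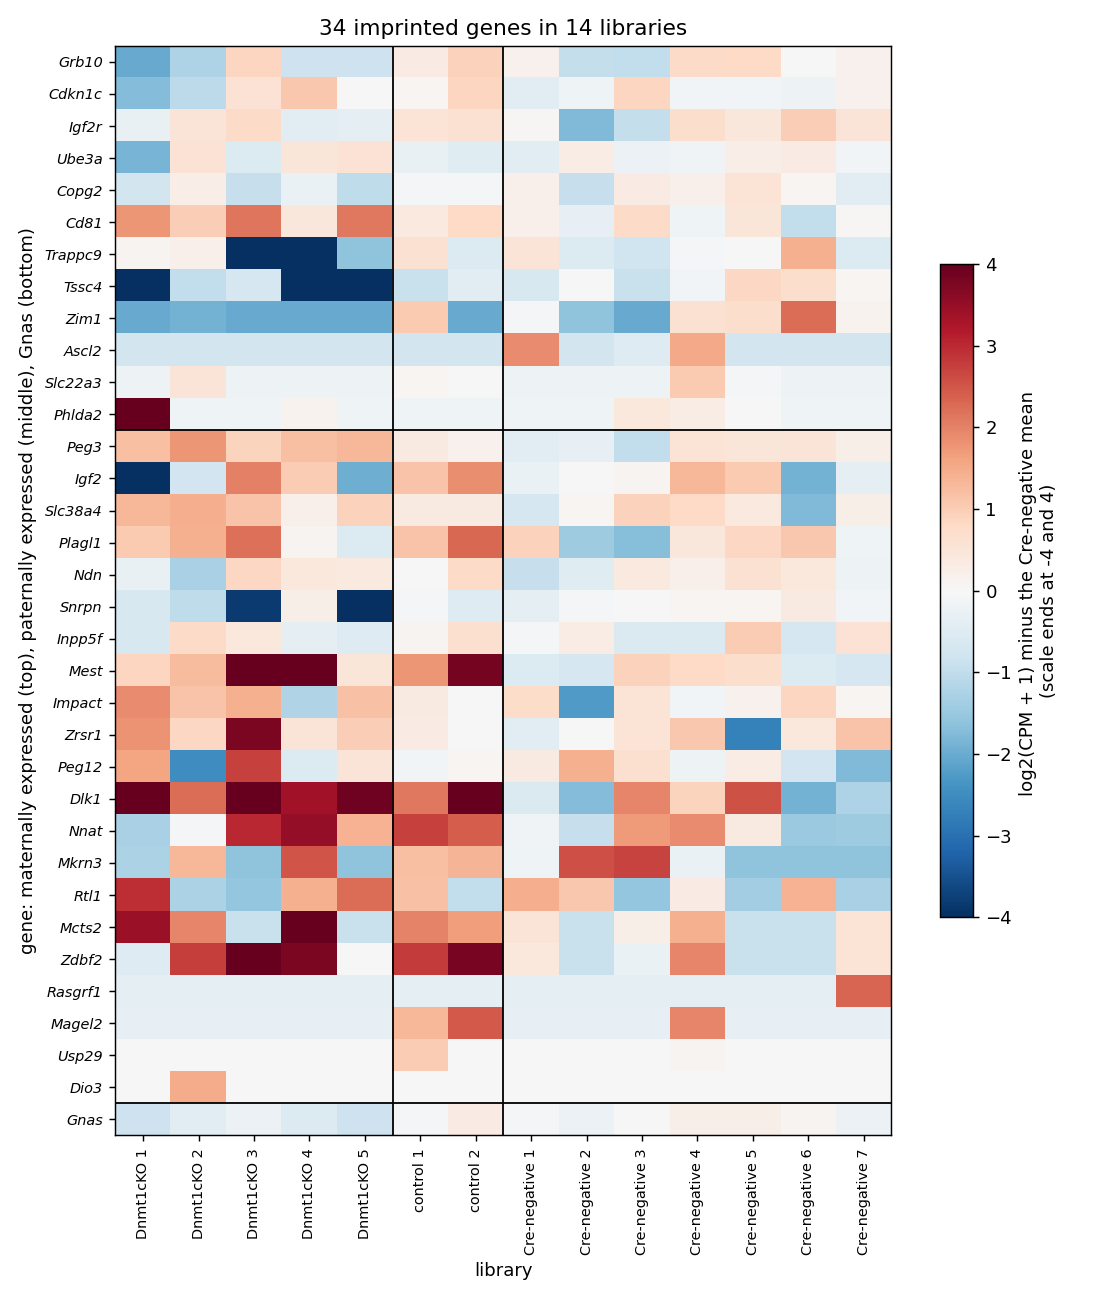
Level of the 34 imprinted genes in the table in each of the 14 libraries, as log2(CPM + 1) minus the mean of the Cre-negative libraries, with Dnmt1cKO on the left, then control, then Cre-negative. Colours end at -4 and 4. Peg3 and Dlk1 are positive in each Dnmt1cKO library, whereas Igf2, Grb10 and Cdkn1c are negative in Dnmt1cKO 1 and 2 and positive in the library labelled Dnmt1cKO 3.

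The genes that copy or guard imprints were counted from a list of 14, all in the table and 12 tested. Between Dnmt1cKO and Cre-negative urothelium 0 were called (edgeR's quasi-likelihood test), beside 1.1% of all genes, and at an unadjusted p under 0.05 there was 1 higher and 3 lower (6.66% and 7.03% of all genes). The higher one was Uhrf1, which brings Dnmt1 to newly copied DNA, at 233 ± 38.6 CPM in Dnmt1cKO, 147 ± 25.2 CPM in control and 145 ± 31.8 CPM in Cre-negative libraries. The 5 Dnmt1cKO libraries, at 194.3 to 295 CPM, did not overlap with the Cre-negative ones, at 102 to 193.7 CPM, as for 0.861% of all genes, and the log2 fold change of 0.69 ± 0.27 missed the threshold (adjusted p = 0.239). The lower ones were Dnmt1 itself, the insulator protein gene Ctcf and the 5-methylcytosine oxidase gene Tet3. Ctcf was lower in each Dnmt1cKO library than in any Cre-negative one, as for 0.999% of all genes.

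The remaining 7 listed genes were not analysed here. They are the noncoding RNA genes H19, Meg3, Rian and Mirg, which are maternally expressed, and Kcnq1ot1, Airn and Nespas, which are paternally expressed. The opposite partners of Igf2, Dlk1, Igf2r and Cdkn1c are among them, and within-library ratios were formed for Zim1 with Peg3 and Mest with Copg2. Of the 34 genes placed by symbol in GENCODE M21, 16 have an annotated antisense exon overlap, among them Igf2, Mest, Copg2, Cd81, Zrsr1, Rtl1 and Gnas, and for these the reads of the 2 strands cannot be told apart. None of the 34 had a near-identical partner gene in the table.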

How the data were processed

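Per the labels' protocols, poly(A) RNA was selected with oligo-dT beads and reverse transcribed from random hexamers. The authors deposited 1 table of expected counts per gene symbol, not scaled to library size. RSEM 1.2.3, Bowtie 0.12.9, bcl2fastq 2.17.1.14 and mm10 were used, per the submitters' processing notes. Which annotation was counted, and whether by strand, is not given in the sources used here. A share of 7.31% to 21.9% of the values in each library was not whole, and expected counts were rounded before testing.

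Genes were filtered with filterByExpr (13011 kept), scaled by TMM and tested in edgeR 4.0.16 (R 4.3.3) by its quasi-likelihood test, with 14 libraries in 1 fit, Benjamini-Hochberg adjustment over all genes tested and a threshold of 0.05. CPM uses TMM-scaled totals. Levels per kb divide CPM by the merged exon length of all annotated transcripts of a gene. Errors beside means are standard deviations and those beside log2 fold changes standard errors. Counts of 0 were set to a floor of 3 counts over the group for fold bounds, and intervals (95%, exact) cover counting error only. The stroma mean averaged log2(CPM + 1) over 18 markers. Ratios of neighbouring genes used a pseudocount of 1 CPM. Positions are from GENCODE M21 on GRCm38, and promoter windows are credited to RefSeq on GRCm38.p6. Alternatives used DESeq2 1.42.0 and limma 3.58.1. The tests were checked on simulated data, with 50 genes for each change in Dnmt1cKO against Cre-negative. The changed genes were drawn only from those above a fixed mean level, and each gene had the trended spread of its level. Low genes such as Zim1, Ascl2 and Magel2 are not covered. The edgeR test recovered 34% of 4-fold and 62% of 16-fold decreases. Of increases it recovered 72% at 4-fold and 100% at 16-fold.

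The members and the lists were chosen with earlier results of these data known. Every value was printed for members called in a comparison, for the 4 others with the smallest p against Cre-negative and for members of the fixed neighbour pairs above 1 CPM; Grb10 was added after its values were seen. Each library is a pool of embryos, and p-values measure the spread between pools. No pair of libraries of a group agreed within sampling noise (lowest chi-square per degree of freedom 54.4). Replicate numbers are tied to no shared litter or batch by the labels, so the main fit has no replicate block.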

Additional observations from a re-analysis of the deposited data

Results flagged for a closer look

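Of 21 groups of 4 to 10 libraries examined among the fully printed genes, 1 held a library set apart from the others of its group. It was Zim1 in Dnmt1cKO, where Dnmt1cKO 2 had 0.104 CPM and the other 4 libraries had 0. The value is a single count. Chance flags about 1 in 20 such groups.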

How the results depend on the processing

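The number of tested imprinted genes called between Dnmt1cKO and Cre-negative urothelium was 3 as reported, beside 1.1% of all genes in edgeR. In DESeq2 it was 5 (Cd81, Dlk1, Mest and Peg3 higher, Zim1 lower), beside 5.15% of all genes. The stroma covariate gave 1 (Grb10, beside 0.692% of all genes), and the replicate block gave 1 (Peg3, beside 0.576%). Without the 3 shallowest libraries it was 1 (Mest), beside 1.05% of all genes. When 1 library was left out it was 2 to 4, beside 0.726% to 1.86% of all genes. Between Dnmt1cKO and control it was 0 in each setting run. Between control and Cre-negative it was 1 (Mest) with no filter (0.165% of all genes), with the replicate block (0.146%) and with the 2 groups alone (0.0473%). It was 0 in the other settings run. The number of genes varying with the stroma mean, 3 as reported, was 0 without the 3 shallowest libraries, 0 without the 3 of highest stroma mean (a setting chosen after seeing the data) and 0 to 3 when 1 library was left out. Peg3 was called in 23 of 26 alternatives, Mest in 21 and Cd81 in 18, with adjusted p from 0.000527 to 0.0987, 1.73e-05 to 0.644 and 0.000903 to 0.319. Signs turned for genes that were not called: Cdkn1c (-0.024 with upper-quartile scaling, -0.29 in limma-voom, -0.90 with the covariate, -0.25 with the block, -0.067 with pooled comparison groups, -0.80 without the highest-stroma libraries, -0.35 to 0.29 with 1 library left out), Igf2 (-0.74, -2.53, -1.27, -0.22 and -2.04 in the same settings from limma-voom on, -0.75 to 0.49 with 1 left out) and Igf2r (0.29 with the block, -0.30 to 0.063 with 1 left out). The cause was not tested. With 0.1 CPM as pseudocount the mean log2 ratio of Zim1 to Peg3 in Dnmt1cKO was -12.54 in place of -9.40. Limma-voom moved the median log2 fold change of all genes to -0.34, from -0.04 in edgeR, and upper-quartile scaling moved it to -0.12 in Dnmt1cKO against control. Same-numbered Dnmt1cKO and Cre-negative libraries correlated at -0.193 to 0.0415, and 0 of 5 Dnmt1cKO libraries correlated best with their own number. Such correlations cannot exclude a shared litter or batch, so whether the numbers pair samples was not settled. Under the block Mest had 2.05 (adjusted p = 0.16) and Cd81 1.33 (adjusted p = 0.319) in edgeR's quasi-likelihood test. Depth limits genes near the floor of 3 counts, which is 0.207 to 1.30 CPM by library.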

Other observations

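A further 32 imprinted genes outside the Peg10 cluster were counted, of which 29 stood in the table and 22 were tested. Between Dnmt1cKO and Cre-negative urothelium, 0 were called higher and 1 was called lower (4.55% of 22, beside 1.1% of all genes in either direction), and 3 higher and 3 lower had an unadjusted p under 0.05, beside 6.66% and 7.03% of all genes. The median log2 fold change was 0.11. The gene called lower was Ampd3, an AMP deaminase gene whose imprinting in mouse is known from the placenta. It had 0 counts in all 5 Dnmt1cKO libraries, against 17.4 and 13.6 CPM in control and 0.341 to 23.6 CPM (median 10.8) in Cre-negative libraries. Against a floor of 3 counts over the group, Ampd3 was at least 90.7-fold lower in Dnmt1cKO than in Cre-negative urothelium (adjusted p = 0.048 by edgeR's quasi-likelihood test) and at least 129-fold lower than in control urothelium (adjusted p = 0.199). The call against Cre-negative was kept in 7 of 26 alternatives, with adjusted p from 8.27e-07 to 0.388, and it was lost without any 1 of 13 of the 14 libraries.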
